A study of Mus musculus with 38 samples.

Results

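Footprints of 8 genes that build and fill the synaptic vesicle were followed through 38 ribosome profiling libraries of mouse primary cortical neurons. The genes were Syn1 and Syn2 (synapsins), Syp (synaptophysin), Sv2a and Sv2b (synaptic vesicle glycoproteins), Syt1 (synaptotagmin) and the vesicular glutamate transporters Slc17a6 (VGLUT2) and Slc17a7 (VGLUT1). They were chosen by name, as 8 of 22443 genes with a coding transcript in the files, and each was read as the footprint count of the coding sequence (CDS) of its longest transcript, given as CPM of the library's CDS total. All 8 were counted in every library and passed the filter on low counts in every comparison.

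A synaptic vesicle is filled with transmitter, held in a reserve, docked at the active zone and fused with the membrane when calcium enters. Synapsins are phosphoproteins that tether vesicles in the reserve pool, synaptophysin is an abundant membrane protein of the vesicle that binds synaptobrevin, SV2 proteins are glycosylated transporter-like proteins that bear on release, and synaptotagmin is the calcium sensor of fast release. VGLUT1 and VGLUT2 load glutamate into vesicles with energy from the vesicular proton pump, and in the forebrain VGLUT1 is known as the transporter of mature cortical neurons, VGLUT2 as the one of thalamic and of young cortical neurons. Their proteins act in axon terminals.

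The study combined proximity biotinylation with ribosome profiling to ask which messengers are translated near the postsynaptic density and how activity changes this. Neurons from embryos of CD-1 mice carried a doxycycline-inducible lentivirus for the biotin ligase TurboID, either fused to the postsynaptic scaffold PSD95 (PSD95-TurboID, also written TurboID-PSD95) or untargeted (Pan-TurboID), so the ligase was not restricted to neurons by its promoter and the construct carried PSD95 sequence of its own. All cultures received cycloheximide, a stop of elongation, for 2 min and then biotin, for 30 min by the labels, although the study's methods give a shorter pulse for the DHPG cultures. From each lysate a part of the monosome fraction was sequenced as the input and the rest was bound to streptavidin as the pulldown. A pulldown and the input with the same number were therefore taken to come from the same pool of culture dishes.

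The 14 groups came from 3 experiments. The KCl experiment held 24 libraries, with 3 replicates each of input and pulldown for PSD95-TurboID and Pan-TurboID neurons that were at rest or were depolarized with 55 mM KCl for 1 h after 2 h of silencing with tetrodotoxin and DL-AP5. The DHPG experiment held 6 libraries of PSD95-TurboID neurons, 3 inputs and 3 pulldowns, given the group I metabotropic glutamate receptor agonist DHPG at 100 µM for 10 min after the same silencing. The knockdown experiment held 8 libraries of PSD95-TurboID neurons treated with siRNAs against the initiation factor eIF4G2 at 20 nM for 72 h, with 2 inputs and 2 pulldowns at rest and 2 of each after KCl. DHPG inputs and all knockdown libraries are described in the labels as cytosol although their lentivirus is given as PSD95-TurboID. Untreated neurons for the DHPG experiment and control siRNA neurons were not analysed here, so across these experiments treatment and experiment cannot be told apart. Within the KCl and knockdown experiments only the depolarized neurons were silenced, by the labels. The study's methods also put the silencers in the medium after KCl. Each comparison of KCl with rest is thus one of KCl with silencing, whose parts cannot be told apart.

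Library totals ran from 5906281 to 35643247 counts and CDS totals from 2047166 to 14635948. Dlg4, the gene of PSD95, was 3.70 log2 units higher in resting PSD95-TurboID pulldown than in input (edgeR adjusted p = 0.00339), where construct and endogenous messenger cannot be told apart, and Eif4g2 had 284 CPM in each resting knockdown input against means of 570.1 to 634 CPM in the inputs of the KCl experiment. Depolarized PSD95-TurboID pulldowns held 338 to 5224 CPM of Dlg4 (SD 2557, n = 3), so its level varied widely between these replicates. All 7 neuronal and all 6 cortical glutamatergic markers were detected in every experiment. Summed GABAergic markers reached 1051 to 1786 CPM in KCl-experiment inputs, 1086 to 1131 CPM in DHPG inputs and 500 to 567 CPM in knockdown inputs. Summed astrocyte markers reached 310.2 to 882 CPM, 90.7 to 92.0 CPM and 535 to 759 CPM in the same order, so the DHPG inputs stood apart while the ranges of the other experiments overlapped. Among bulk libraries of this kind, fewer cells of a type and less translation per cell cannot be told apart.

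On the mm10 assembly the CDS of Syn1 spans chrX:20861544-20920789 on the minus strand with 2013 coding bases in 13 exon segments, and that of Syn2 spans chr6:115135081-115274324 on the plus strand with 1440 bases in 11 segments. Syp lies at chrX:7638693-7648883 on the plus strand (945 bases, 6 segments) and Syt1 at chr10:108500540-108691046 on the minus strand (1266 bases, 8 segments). Sv2a is at chr3:96184986-96193916 on the plus strand (2229 bases, 12 segments) and Sv2b at chr7:75117595-75206540 on the minus strand (2052 bases, 12 segments). The 2 transporter genes share chromosome 7 and the plus strand, with Slc17a6 at chr7:51622635-51669360 (1749 bases) and Slc17a7 at chr7:45164083-45175044 (1683 bases), each in 12 segments. An exon of another gene entered a member's CDS only at Syn2, where 90 bases overlap an exon of Timp4 on the opposite strand.

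Related genes can exchange short reads, so the longest stretch of bases shared without a mismatch by each pair of relatives was read from the reference. The stretches are given 5′ to 3′ on the coding strand, in lower case because every base shown is shared.
Syn1 and Syn2: aactacaaggcctacatgaggacatc
Sv2a and Sv2b: tggtaccagcgctgg
Slc17a6 and Slc17a7: aacctgggcgtggccatcgtg
The synapsin stretch of 26 bases starts at CDS base 964 of Syn1 and 967 of Syn2 and runs across an exon junction (chrX:20865021-20865135 and chr6:115254716-115261663, ends of the spliced stretch). The SV2 stretch of 15 bases starts at CDS base 1246 of Sv2a and 1075 of Sv2b (chr3:96189433-96189447 and chr7:75141009-75141023), and the transporter stretch of 21 bases at CDS base 268 of Slc17a6 and 244 of Slc17a7 (chr7:51625462-51625482 and chr7:45168896-45168916). Over the aligned CDS the pairs were 74.3%, 69.2% and 72.0% identical. Footprints were counted from a length of 25 bases, and of all windows of that length in a member's CDS at most 3 occurred in the CDS of another gene (3 of 1242 for Syt1, with Syt2 and Syt5), 2 were shared between Syn1 and Syn2, and none of 2205 in Sv2a or 1659 in Slc17a7 was shared. By exact matches, reads of the paralogs described here could thus be told apart over almost the whole CDS. Matches with mismatches, pseudogenes and UTRs were not searched, and the multimapping settings are not known.

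In the inputs, which sample ribosomes of the whole culture, the vesicle genes covered a wide range of footprint density. Per kilobase of CDS and over the 12 inputs of the KCl experiment, Syp was the densest member with 1594 ± 248 CPM per kb (SD, n = 12), ranked 28 among 12882 genes. Syn1 followed with 687 ± 98.9 and Syt1 with 552 ± 102 CPM per kb. These ranges overlapped, from 523 to 830.3 CPM per kb for Syn1 and from 378 to 738 CPM per kb for Syt1.

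Syn2 had 284 ± 38.9 and Sv2a 268 ± 54.1 CPM per kb in the same 12 inputs, with overlapping ranges. Their order depended on state, since Sv2a was above Syn2 in 6 of 6 resting inputs (269.9 to 339.6 against 243 to 273 CPM per kb over the libraries) and below it in 5 of 6 depolarized inputs (168 to 295 against 243 to 351 CPM per kb). Slc17a7 had 158 ± 30.1 CPM per kb, and the least dense members were Sv2b with 37.4 ± 10.4 and Slc17a6 with 29.0 ± 5.44 CPM per kb, whose ranges (23.9 to 55.3 and 21.8 to 40.4) also overlapped. The order of these means, pooled over rest and KCl, was the same in the 3 DHPG inputs. In the 4 knockdown inputs the transporters had changed places, with Slc17a6 at 69.6 ± 8.99 CPM per kb ranked 6 and Slc17a7 at 31.7 ± 2.63 CPM per kb ranked 8 among the 8 members.

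**Figure D1:**
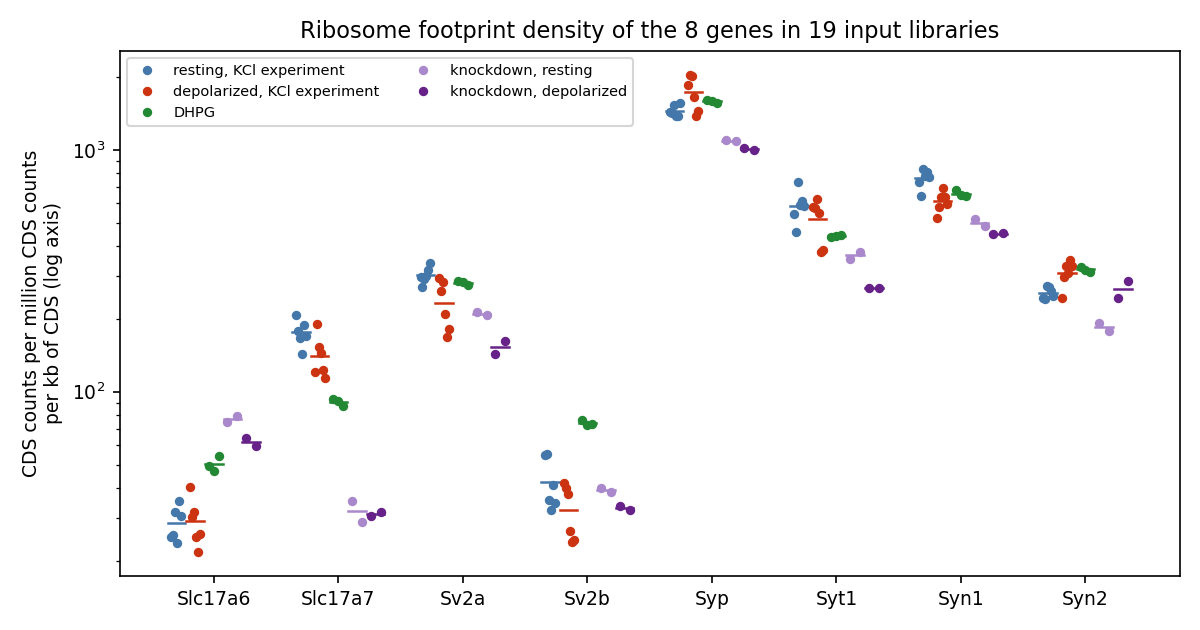
Footprint density of the 8 vesicle genes in the input libraries, in CPM per kilobase of CDS on a log axis, with 1 point per library, colours for experiment and state, and bars for group means. Syp lay on top with a mean of 1594 CPM per kb in the KCl experiment, and Slc17a6 and Slc17a7 changed places between the KCl and the knockdown experiment.

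The balance of the glutamate transporters differed between the experiments. Of the footprints on Slc17a6 and Slc17a7 together, per kilobase, Slc17a7 took 84.2% ± 3.56 (SD, n = 12, 74.9 to 89.2%) in KCl-experiment inputs, 64.4% ± 2.33 (n = 3, 61.7 to 66.1%) in DHPG inputs and 31.4% ± 3.31 (n = 4, 26.9 to 34.8%) in knockdown inputs. The 3 ranges did not overlap.

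Slc17a6, the VGLUT2 gene, had 44.6, 41.6 and 53.8 CPM in the resting PSD95-TurboID inputs, 86.3, 82.1 and 95.1 CPM in the DHPG inputs, and 131 and 138 CPM in the resting knockdown inputs. Slc17a7, the VGLUT1 gene, ran the other way, with 301, 241 and 286 CPM, then 157, 154 and 148 CPM, then 59.2 and 48.9 CPM. No library of a later experiment in this order overlapped one of an earlier experiment for either gene.

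Against the resting inputs, the DHPG inputs were higher in Slc17a6 by 1.02 log2 units (SE 0.14, edgeR adjusted p = 3.68e-05) and lower in Slc17a7 by −0.75 (SE 0.13, adjusted p = 0.000405). Sv2b was higher by 0.96 (SE 0.19, edgeR adjusted p = 0.00115) and Syn2 by 0.43 (adjusted p = 0.00205), so 3 members were called higher and 1 lower where 16.3% of all genes tested were higher and 16.5% lower.

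With the knockdown, 1 member was called higher and 4 lower against PSD95-TurboID inputs without it, beside 7.99% and 7.87% of all genes. Slc17a6 was higher by 1.39 log2 units (SE 0.19, edgeR adjusted p = 2.47e-05) and Slc17a7 lower by −2.28 (SE 0.21, adjusted p = 1.54e-07), a call that held in every alternative run. Syt1 was lower by −0.72 (edgeR adjusted p = 0.0236), Syp by −0.57 (adjusted p = 0.00961) and Syn1 by −0.48 (adjusted p = 0.0271), and of these 5 members 2 remained called without replicate 1 and 2 without replicate 2. Since the neurons without knockdown came from another experiment, neither this nor the DHPG difference can be told apart from a difference between culture series. Summed GABAergic markers moved with the knockdown difference (1051 to 1786 against 500 to 567 CPM in inputs) and summed astrocyte markers with the DHPG difference (310.2 to 882 against 90.7 to 92.0 CPM). Cortical glutamatergic sums overlapped, at 1032 to 1725, 1413 to 1467 and 1358 to 1488 CPM in KCl-experiment, DHPG and knockdown inputs. In that order oligodendrocyte sums were 45.2 to 269, 28.3 to 33.4 and 101 to 132 CPM, and the sparse microglia sums 0.759 to 5.74, 2.27 to 3.88 and 9.75 to 20.1 CPM. The part of any of these was not tested.

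**Figure D2:**
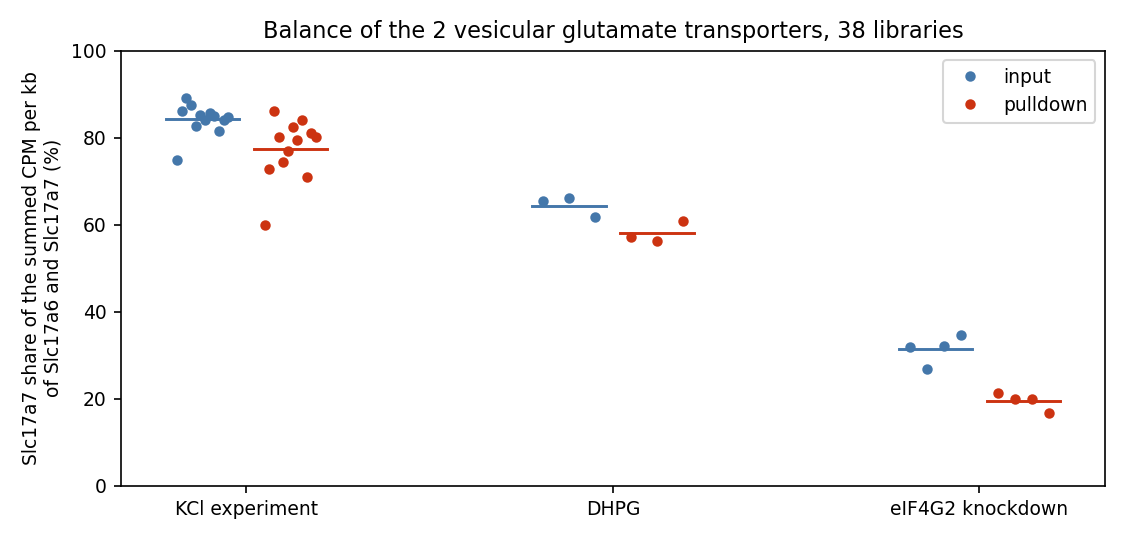
Share of Slc17a7 in the summed footprint density of Slc17a6 and Slc17a7, in percent, with 1 point per library and bars for the means, for the inputs (blue) and pulldowns (red) of each experiment. Inputs of the KCl experiment lay between 74.9 and 89.2%, those of the knockdown experiment between 26.9 and 34.8%, and pulldowns had lower mean shares than inputs in each experiment.

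The streptavidin pulldown held more footprints of both transporters, both SV2 genes and Syp than its input. In resting PSD95-TurboID neurons 5 of 8 members were called higher and none lower, beside 11.5% and 13.5% of all 13003 genes tested, and the members' median log2 ratio was 0.78 against −0.05 over all genes. For Sv2b, inputs of 114, 66.5 and 71.0 CPM stood beside pulldowns of 293, 167 and 192 CPM, a log2 ratio of 1.41 (SE 0.29, edgeR adjusted p = 0.00363). The lowest pulldown exceeded the highest input, and the gain was alike in the 3 pairs, at 1.37, 1.33 and 1.44.

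Sv2a rose from 602, 672 and 757 CPM in the inputs to 1277, 1259 and 1842 CPM in the pulldowns (log2 ratio 1.14, SE 0.26, edgeR adjusted p = 0.00548). Slc17a6 rose from the input values above to 121, 91.1 and 136 CPM (log2 ratio 1.34, SE 0.33, edgeR adjusted p = 0.00802), and Slc17a7 to 469.8, 337 and 530.0 CPM (0.72, SE 0.23, adjusted p = 0.0239). Pulldowns and inputs did not overlap for any of these 3 genes. Syp, whose protein makes up much of the vesicle membrane, rose from 1347, 1298 and 1469 CPM to 2326, 2073 and 2808 CPM (log2 ratio 0.84, SE 0.20, edgeR adjusted p = 0.00708), also without overlap.

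The synapsins and the calcium sensor behaved otherwise. Syn1 had 1293, 1572 and 1553 CPM in the same inputs and 1324, 1916 and 1445 CPM in the pulldowns, and Syt1 had 580.2, 747 and 741 CPM and then 622, 1065 and 694 CPM. The groups overlapped for both genes, and the 95% intervals of the log2 ratio ran from −0.31 to 0.56 for Syn1 and from −0.34 to 0.83 for Syt1, so that only the second held the ratio of 0.72 found for Slc17a7. Syn2 had 349.6, 389 and 359 CPM in the inputs and 283, 295 and 269.6 CPM in the pulldowns, with every pulldown below every input, but its log2 ratio of −0.34 (SE 0.17) did not pass the test (edgeR adjusted p = 0.151).

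The other culture groups of the KCl experiment gave like ratios. Members called higher were 4 in depolarized PSD95-TurboID neurons, 5 in resting and 4 in depolarized Pan-TurboID neurons, and none was called lower, where 8.14%, 4.52% and 5.13% of all genes were higher and 4.33%, 5.01% and 3.62% lower. Of the 5 members called at rest, Slc17a7 was not called after depolarization, with log2 ratios of 0.42 (edgeR adjusted p = 0.204) for PSD95-TurboID and 0.49 (adjusted p = 0.151) for Pan-TurboID. The calls in these 4 comparisons rest on few libraries, since without replicate 3 no member was called in any of them and without replicate 2 none in Pan-TurboID neurons, although the resting log2 ratios of Sv2b, Sv2a and Slc17a6 were at least 1.03 in each of these fits.

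In the fit that compared each pulldown with the input of the same culture, the count reached 6 of 8 in all 4 comparisons, because Syn2 was called lower in each, with log2 ratios of −0.34 (edgeR adjusted p = 0.0135), −0.37 (adjusted p = 0.00869), −0.33 (adjusted p = 0.0183) and −0.32 (adjusted p = 0.0258), and Slc17a7 was added as higher in depolarized neurons. Calls over all genes increased in that fit too, to 19.3% higher and 22.6% lower in resting and 17.2% and 17.4% in depolarized PSD95-TurboID, and to 15.4% and 17.5% in resting and 16.3% and 15.6% in depolarized Pan-TurboID neurons. Over all 19 pulldown and input pairs of the series the log2 ratio was above 0 in 19 of 19 for Slc17a6, Sv2a, Sv2b and Syp, with medians of 1.05, 0.99, 1.11 and 0.63. It was above 0 in 17 of 19 pairs for Slc17a7, in 11 for Syn1, in 8 for Syt1 and in none for Syn2, whose pairs ran from −0.57 to −0.24.

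**Figure D3:**
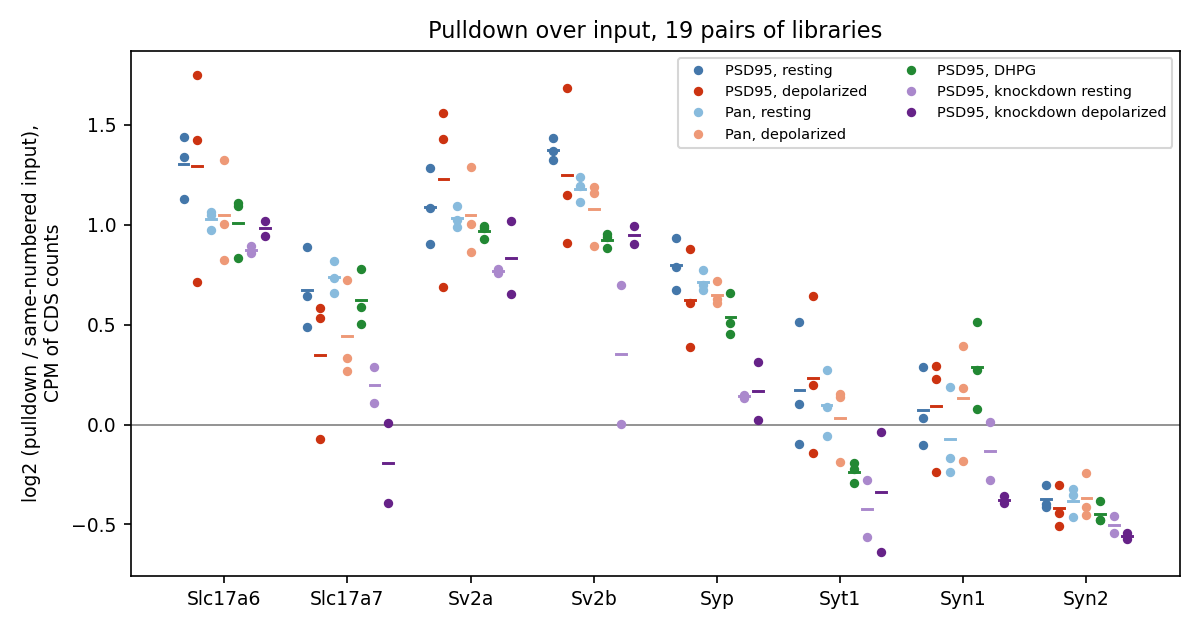
Log2 ratio of pulldown CPM to the CPM of the same-numbered input for each of the 8 genes, with 1 point per pair, colours for the 7 culture groups and bars for their means. All 19 pairs of Slc17a6, Sv2a, Sv2b and Syp lay at or above 0, the lowest being a knockdown pair of Sv2b at 0.00, and all 19 of Syn2 below it.

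The DHPG experiment, whose replicates lay close together, gave 6 members higher and 1 lower in pulldown, where 40.5% of all genes were higher and 39.3% lower. Slc17a6 had 86.3, 82.1 and 95.1 CPM in inputs and 184, 177 and 169 CPM in pulldowns, a log2 ratio of 1.22 (SE 0.07, edgeR adjusted p = 4.17e-11). The edgeR scaling (TMM) put each log2 ratio of this experiment 0.21 above the ratio of the CPM printed here, which are scaled by CDS totals. Sv2a (1.18), Sv2b (1.13), Slc17a7 (0.84) and Syp (0.75) were called higher too, and Syt1 (−0.03, edgeR adjusted p = 0.663) was not called but was lower with CDS totals (−0.24, adjusted p = 0.000625). Syn1 was called at 0.50 (edgeR adjusted p = 1.57e-06), beside 0.30 with CDS totals (adjusted p = 0.000835) and pairs of 0.08, 0.27 and 0.51, but not after a trend on CDS length was removed (0.16, adjusted p = 0.061). Syn2 had 473, 459.8 and 451 CPM in inputs and 339, 330.0 and 345 CPM in pulldowns, lower without overlap, with a log2 ratio of −0.24 by TMM (SE 0.06, edgeR adjusted p = 0.000761) and of −0.45 with CDS totals (adjusted p = 8.32e-07).

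After knockdown of eIF4G2, 4 members were called higher and 2 lower in pulldown at rest (22.1% and 23.4% of all genes) and likewise 4 and 2 after KCl (24.0% and 24.8%). Slc17a6, Sv2a, Sv2b and Syp were the 4 in each case, with log2 ratios at rest of 0.99 (edgeR adjusted p = 6.48e-08), 0.88 (adjusted p = 1.42e-08), 0.54 (adjusted p = 0.0121) and 0.25 (adjusted p = 0.0186). TMM put these ratios 0.11 above those with CDS totals, under which Syp was called neither at rest (0.14, edgeR adjusted p = 0.178) nor after KCl (0.18, adjusted p = 0.0863). The pair of Sv2b values at rest disagreed, at 0.70 and 0.00. Syn2 was called lower both times (−0.38 and −0.45). The other member called lower was Syt1 at rest (−0.30, edgeR adjusted p = 0.0489), lost after removal of the length trend (−0.25, adjusted p = 0.128), and Syn1 after KCl (−0.27, adjusted p = 0.00772). After KCl Syt1 (−0.20) was not called and at rest Syn1 (−0.02) was not, and in both states Slc17a7 was not called, with resting pulldowns of 63.8 and 59.8 CPM beside inputs of 59.2 and 48.9 CPM. At rest 2 members were called without the first input replicate and 3 without the other. With the length trend removed, 3 members were higher and 2 lower at rest, so calls besides that of Syt1 changed too. After KCl 4 were higher and 2 lower in that fit. The share of all genes called without the trend is not given for the knockdown. These 2 sets of counts thus show only how member calls changed, beside 22.1 to 24.8% of genes with the trend left in.

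Whether the bait mattered was asked of the difference between the PSD95-TurboID and Pan-TurboID ratios, averaged over rest and KCl. None of the 8 members passed (edgeR adjusted p = 1 for each), and of all genes 0.00769% were higher and 0% lower, which is Dlg4 alone. The largest member difference was 0.25 log2 units for Slc17a6, with a 95% interval from −0.40 to 0.91, so a difference of the size of its enrichment was outside the interval but a smaller one was not. The ratios of the untargeted ligase were thus of like size to those of the postsynaptic one, within these intervals.

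Pulldown over input rose with CDS length over all genes, with a Spearman correlation across genes of 0.53 in resting PSD95-TurboID neurons and 0.51 to 0.62 in the 7 culture groups, where genes are not independent replicates. With that trend removed, 4 of 8 members were still called in resting PSD95-TurboID neurons, where 7.10% of all genes were higher and 7.24% lower, and Syp, the shortest member, had a larger ratio (1.09, edgeR adjusted p = 0.00356) while Slc17a7 was not called (0.60, adjusted p = 0.0529). In resting Pan-TurboID neurons 3 members were called (Syp, Sv2a and Sv2b), beside 1.64% of genes higher and 1.42% lower, while Slc17a6 (0.95, edgeR adjusted p = 0.076) and Slc17a7 (0.66, adjusted p = 0.0706) were not, against 1.08 and 0.78 with the trend left in. The part of length in the members' ratios beyond this was not tested.

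Where along the CDS the footprints lay differed between pulldown and input, a comparison chosen after the data were seen. Exon segments were assigned to the 5′ part or the 3′ part of the CDS by whether their midpoint came before or after its middle. The first exon segment had fewer footprints in pulldown than in input in 7 of 7 culture groups for 7 members and in 6 of 7 for Slc17a7. The exception, depolarized knockdown neurons, rests on 14 input and 11 pulldown counts of that segment. For Slc17a6 the first segment held only 26 to 62 input and 5 to 28 pulldown counts a group. Segments with a gain began at CDS base 228 to 619 in Syp, at 340 to 574 in Slc17a6 and as late as 688 to 841 in Syn2, depending on the group.

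All 19 pairs had a higher pulldown ratio in the 3′ part than in the 5′ part for Syn1, Syn2, Syp, Sv2a and Syt1, and 18 of 19 for Sv2b and Slc17a6, and all 17 pairs with enough counts for Slc17a7. In resting PSD95-TurboID neurons the 3′ part was above the 5′ part in every pair for 8 of 8 members, beside 70.9% of all genes. The other shares of members and genes were 8 of 8 and 66.6% in depolarized PSD95-TurboID, 8 of 8 and 71.2% in resting Pan-TurboID, 6 of 8 and 69.1% in depolarized Pan-TurboID, 8 of 8 and 80.5% with DHPG, 8 of 8 and 73.7% in resting knockdown, and 7 of 7 and 80.0% in depolarized knockdown neurons. Most genes thus shared the direction of the shift.

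Members differed in where this left them. Syn2 was lower in pulldown over its 5′ part (median log2 ratio −1.37 over 19 pairs) and higher over its 3′ part (0.81), as were Syt1 (−0.79 and 0.44) and Syn1 (−0.75 and 0.53). Slc17a6 was higher over both parts (0.52 and 1.57), with its 5′ part below 0 in 0 of 19 pairs, and so was Sv2b by its medians (0.39 and 1.51), with 4 of 19 below 0. Slc17a7 had a median of 0.17 in the 5′ part, below 0 in 6 of 17 pairs, and 1.41 in the 3′ part, while Syp and Sv2a had −0.18 and 0.08 in the 5′ part, below 0 in 14 and 5 of 19 pairs, and were higher in the 3′ part (0.92 and 1.56). The members whose total was not higher in pulldown were thus higher there over their 3′ part, by these medians, like the others.

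By limma on the log2 ratio of 3′ to 5′ counts, members called higher in pulldown were 4 of 8 in resting PSD95-TurboID (27.8% of genes higher, 0.223% lower), 8 in depolarized PSD95-TurboID (34.7% and 0.223%), none in resting Pan-TurboID (0.762% and 0%) and 2 in depolarized Pan-TurboID neurons (18.7% and 0.0586%). They were 8 with DHPG (74.8% and 2.42%), 4 in resting knockdown (32.4% and 1.44%) and 7 in depolarized knockdown (50.9% and 1.31%). None was lower. With the input of the same culture as a block, the count became 8 in resting PSD95-TurboID, 7 in resting Pan-TurboID and 6 in depolarized Pan-TurboID neurons, where 43.1%, 30.8% and 39.9% of all genes were then higher and 0.457%, 0.129% and 0.199% lower. Without replicate 3 no member was called in PSD95-TurboID neurons.

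**Figure D4:**
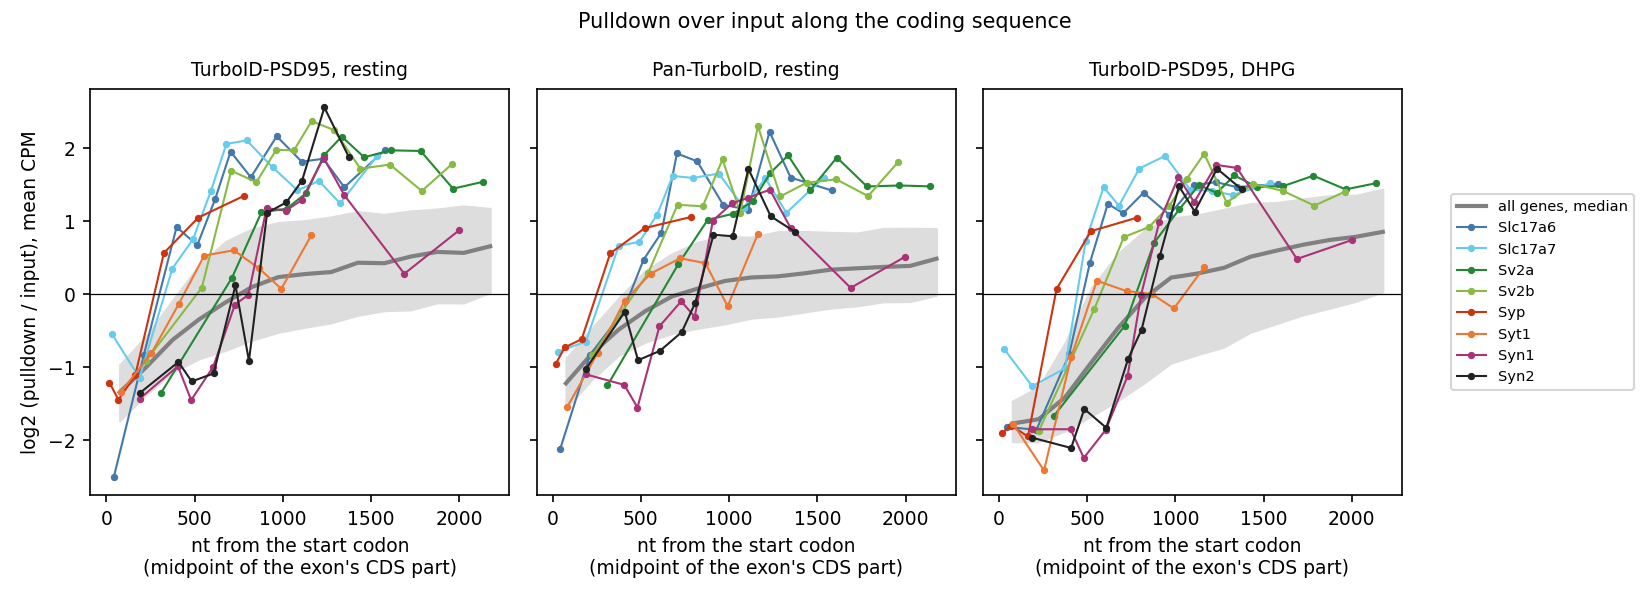
Log2 ratio of pulldown to input footprints of each exon segment (points, at the segment's midpoint in bases from the start codon), with 1 coloured line per gene, in resting PSD95-TurboID, resting Pan-TurboID and DHPG neurons. The grey line is the median of all genes and the grey band their middle quartiles. Lines of the members start below 0 at the 5′ end and are higher towards the 3′ end. Slc17a7 was an exception in 1 of 7 culture groups of the series, on 14 input and 11 pulldown counts.

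In the 19 inputs a median of 79.1% of the CDS counts of Syn2 lay in the 5′ part (65.3 to 88.2%), against 42.4% (20.8 to 75.7%) in the 19 pulldowns, beside all-gene medians of 58.3% and 41.5%. In resting neurons of the KCl experiment its 5′ part went from 295.7 ± 17.0 CPM in inputs to 139 ± 25.4 CPM in pulldowns (SD, n = 6 each) and its 3′ part went from 74.2 ± 11.1 to 145.6 ± 17.0 CPM.

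The 3 resting PSD95-TurboID pairs gave log2 ratios of −1.37, −1.04 and −1.42 in the 5′ part of Syn2 and 1.27, 0.94 and 1.52 in its 3′ part. This is the largest 3′ shift among the members in that group, 2.52 log2 units (SE 0.54, limma adjusted p = 0.00904), and larger than that of 96.8% of all genes. With DHPG it was 2.89 (SE 0.23, limma adjusted p = 2.9e-05). The overlap with Timp4 on the other strand covers 90 of the 1440 bases, and its part in these values was not tested.

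The total CDS footprints of no vesicle gene passed the unblocked test for depolarization outside the knockdown. No member was called between KCl and rest in the inputs, where 6.33% of genes were higher and 9.02% lower, in PSD95-TurboID pulldowns (3.30% and 3.28%), in Pan-TurboID pulldowns (1.88% and 3.15%) or in the change of the PSD95-TurboID ratio (0% and 0%). The members' median in inputs was −0.21 log2 units against −0.01 over all genes, and the values ran from −0.35 for Sv2b and −0.34 for Sv2a to 0.30 for Syn2 (edgeR adjusted p = 0.0981) and 0.30 for Syp. Slc17a7 in Pan-TurboID pulldowns stood closest to a call, with 549, 498 and 528 CPM at rest and 256, 312 and 343 CPM after KCl, which did not overlap (log2 change −0.74, SE 0.23, edgeR adjusted p = 0.0586). With the replicate number as a block, since the study processed resting and activated samples of a replicate together, it was called lower (−0.73, edgeR adjusted p = 0.0308), as in 4 other alternatives. DESeq2 and the fit without the length trend each called Syn2 higher in the inputs.

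In the knockdown neurons KCl was followed by a higher Syn2 and a lower Sv2a in both fractions. Syn2 had 276 and 258 CPM in resting and 352 and 412 CPM in depolarized inputs (log2 change 0.53, edgeR adjusted p = 0.00088), and Sv2a 474 and 461 against 319 and 361 CPM (−0.45, adjusted p = 0.000811). Neither pair of groups overlapped. Syt1 was lower in the inputs (−0.44, edgeR adjusted p = 0.0134) and Syn1 in the pulldowns (−0.39, adjusted p = 0.00101), so 1 member rose and 2 fell in each fraction, beside 8.91% of genes higher and 10.3% lower in inputs and 10.2% and 12% in pulldowns. With the replicate number as a block Syt1 was also called lower in the pulldowns (−0.34, edgeR adjusted p = 0.042). The difference from neurons without knockdown was not tested, and 1 member was called in the inputs without replicate 2 of the depolarized inputs.

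Slc17a7 changed along its CDS where its total had not passed the test. In the 12 inputs of the KCl experiment its 5′ part had 217 ± 27.1 CPM at rest and 211 ± 39.9 CPM after KCl (SD, n = 6 each), while its 3′ part had 78.4 ± 15.1 CPM at rest and 26.6 ± 17.4 CPM after KCl. By library, the 3′ part had 64.2, 56.5 and 78.0 CPM in resting PSD95-TurboID inputs and 92.8, 88.5 and 90.4 CPM in resting Pan-TurboID inputs, against 53.7, 11.5 and 11.3 CPM and 41.8, 22.8 and 18.5 CPM after KCl. No depolarized input reached a resting one.

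The log2 ratio of its 3′ to 5′ counts was 1.73 units lower with KCl, a change of −1.73 (SE 0.37, limma adjusted p = 0.0144), lower than in all but 1.22% of genes, whose median change was −0.31. Slc17a7 was the only member called, beside 3.24% of genes lower and 0.0821% higher. The call was lost without replicate 2 (−1.38, limma adjusted p = 0.221) and without replicate 3 (−1.44, adjusted p = 0.563), each time with the same sign. This comparison too was chosen after the data were seen. It took the 2 baits of a replicate number as independent, so its SE and p-value leave out what they share.

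Along the 12 exon segments the log2 change of mean input CPM with KCl ran from 0.35 in segment 1 (chr7:45164083-45164144), 0.05 in segment 2 and 0.03 in segment 3 through −0.62 in segment 7 to −2.07 in segment 11 (chr7:45173362-45173489) and −1.57 in segment 12 (chr7:45174751-45175044). Values went down over several segments rather than at 1 exon junction. A median of 73.0% of the gene's input counts lay in the 5′ part at rest (68.6 to 78.6%) and 91.1% after KCl (79.4 to 95.3%), while the all-gene median went from 57.4% to 63.9%.

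Pulldowns and knockdown neurons had the same direction without a call. In the pulldowns of the KCl experiment the 5′ share of Slc17a7 was 54.0% at rest (50.3 to 59.6%) and 81.6% after KCl (68.9 to 89.9%), and its 3′ part went from 222.8 ± 44.2 to 67.1 ± 40.5 CPM. The limma changes of the 3′ to 5′ ratio were −1.85 (SE 0.52, adjusted p = 0.135) in PSD95-TurboID pulldowns and −1.79 (adjusted p = 0.315) in Pan-TurboID pulldowns, where 0.0117% and 0.0117% of genes were higher and 0.129% and 0.0704% lower. In knockdown inputs the 3′ part had 15.4 and 20.7 CPM at rest and 2.33 and 8.29 CPM after KCl, with limma changes of −2.37 (adjusted p = 0.18) in inputs and −2.35 (adjusted p = 0.138) in pulldowns (0% and 0% of genes called in inputs, 0.170% higher and 0.0524% lower in pulldowns). No depolarized library overlapped a resting one in the 5′ share in any of these sets. In depolarized knockdown neurons this rests on few counts, 198 and 123 over the whole CDS in inputs and 135 and 87 in pulldowns. Of these counts, 84.6 to 95.5% in inputs and 77.0 to 79.3% in pulldowns lay in the 5′ part.

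**Figure D5:**
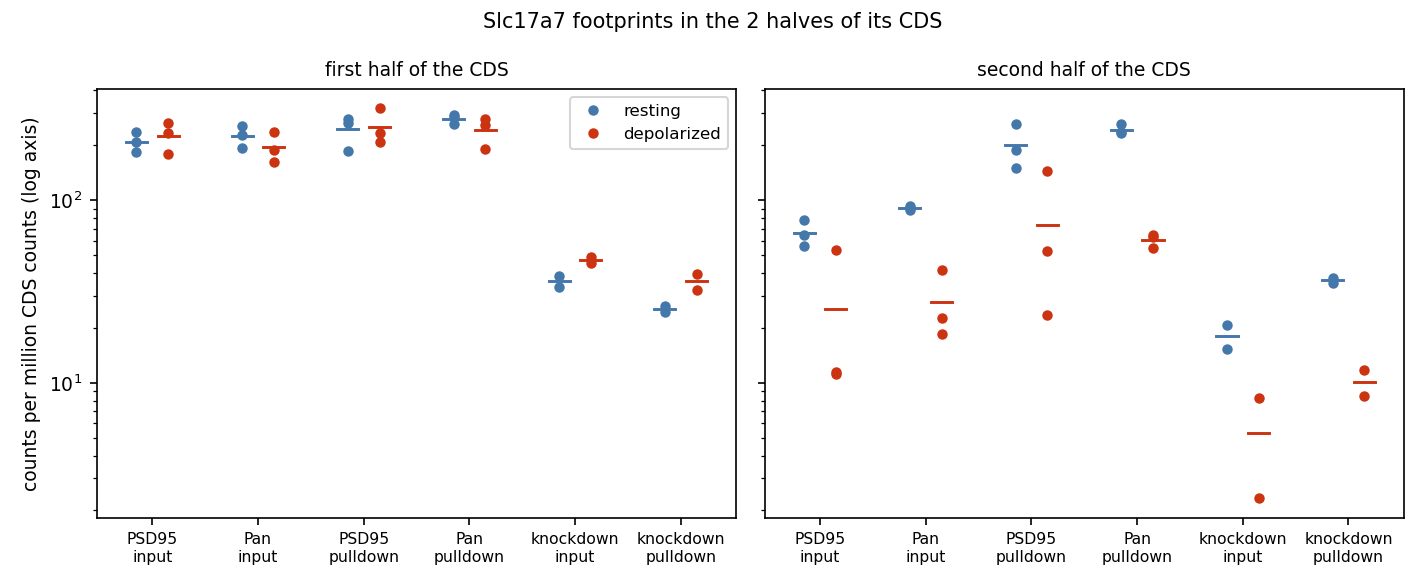
Footprints of Slc17a7 in CPM in the exon segments before the middle of its CDS (the 5′ part, left) and after it (the 3′ part, right), on a log axis, with 1 point per library at rest (blue) and after KCl (red), bars for group means, and inputs and pulldowns side by side. In the 12 inputs of the KCl experiment the 5′ part had means of 217 and 211 CPM, while the 3′ part went from 78.4 to 26.6 CPM.

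The 5′ UTRs of the members carried very different shares of their footprints. Medians were taken over culture groups whose inputs held at least 100 UTR counts in sum. In these inputs the 5′ UTR held a median of 46.1% of the 5′ UTR and CDS counts of Syt1, 30.8% of Sv2b and 22.0% of Slc17a6. It held 19.1% of Sv2a and 18.97% of Slc17a7, but 4.48% of Syn2, 3.91% of Syn1 and 0.388% of Syp. The value of Syp rests on 9 of 19 inputs, none at rest or from the knockdown. That of Syn2 rests on 15, none from the knockdown, and that of Slc17a7 on 17. With inputs and pulldowns summed the shares ran from 0.215% for Syp to 35.0% for Syt1, beside a median of 13.5% over 10710 genes. Per kilobase and over the same sum, the 5′ UTR of Slc17a7, which is 134 bases long, had 161% of the density of its CDS and that of Syt1 103%. Reads were placed by their 5′ end, so ribosomes on the start codon fall partly into the UTR count, most of all in a short UTR. The 3′ UTRs held 0.101 to 1.64% of the CDS density.

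Upstream ATG triplets, counted on the coding strand, numbered 7 in the 5′ UTR of Sv2b, 7 in that of Slc17a6, 4 in Syp and 2 in Syt1, and none was found in the other 4. Of all 20877 5′ UTRs 55.3% hold at least 1. Syp, with 4 such triplets, had the smallest UTR share of the 8 members, and Slc17a7, with none, a larger one.

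Pulldowns had less of the 5′ UTR than their inputs in the pairs with enough UTR counts. For Syt1 the 5′ UTR share was 38.9 to 48.5% in resting PSD95-TurboID inputs and 13.8 to 20.0% in pulldowns, without overlap, and over 19 pairs its median went to 19.9% in pulldowns. The share was lower in pulldown in 19 of 19 pairs for Syn1, Sv2a (19.1% to 2.64%), Sv2b (30.8% to 7.98%) and Slc17a6 (22.0% to 4.40%), in 17 of 17 for Slc17a7 (18.97% to 5.28%), 15 of 15 for Syn2 and 9 of 9 for Syp. Groups whose inputs held fewer than 100 UTR counts in sum were left out. The tallies of Slc17a7, Syn2 and Syp thus do not cover all 19 pairs.

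Most genes shared this too. In resting PSD95-TurboID neurons 7 of 7 measured members and 82.6% of genes had a lower 5′ UTR share in every pair. The figures were 8 of 8 and 77.8% in depolarized PSD95-TurboID, 7 of 7 and 85.7% in resting Pan-TurboID, 8 of 8 and 81.1% in depolarized Pan-TurboID, 8 of 8 and 77.6% with DHPG, 6 of 6 and 82.0% in resting knockdown and 5 of 5 and 87.1% in depolarized knockdown neurons.

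KCl did not move the 5′ UTR counts of any member past the test. The members' median change was 0.42 log2 units in inputs against 0.17 over all genes (0.443% of genes higher, 0% lower), and 0.81 against 0.65 in PSD95-TurboID pulldowns (0.286% higher, 0% lower). Slc17a6 had the largest change there, 1.95 (SE 0.62, edgeR adjusted p = 0.181), resting on 4 to 27 UTR counts a library at rest, and DESeq2 and the replicate block called it higher (1.97 with the block, edgeR adjusted p = 0.0347).

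Other genes of the vesicle cycle showed which of these features were shared. Among 21 relatives on the vesicle (further synapsins, synaptotagmins, SV2, SCAMP and Rab3 genes), 9 were higher and 1 lower in resting PSD95-TurboID pulldowns, where 11.5% of all genes were higher and 13.5% lower, with a median log2 ratio of 0.55 against −0.05 over all genes. Scamp5, a secretory carrier membrane protein, was higher by 0.99 (edgeR adjusted p = 0.003) and Dnajc5, the vesicle chaperone CSP, lower by −0.68 (adjusted p = 0.0239). Of 7 genes tested that supply or load transmitter, 3 were higher and none lower (median 0.81), among them the glutamine transporter Slc38a1 at 1.195 (edgeR adjusted p = 0.00549). The counts were lower elsewhere in the KCl experiment, with 3, 4 and 1 of 21 relatives and 1, 2 and 1 of 7 loading genes called higher in depolarized PSD95-TurboID, resting Pan-TurboID and depolarized Pan-TurboID neurons, beside 8.14%, 4.52% and 5.13% of all genes. With the CDS length trend removed in resting PSD95-TurboID neurons, 1 of 7 loading genes was higher and none lower (median 0.60). Of the 21 relatives 11 were then higher and none lower (median 0.66), beside 7.10% of all genes higher and 7.24% lower.

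Of 10 SNAREs and partners, which carry out fusion, 4 were lower, none higher and 6 not called in resting PSD95-TurboID neurons (median −0.68), including Napb, a cofactor of SNARE disassembly, at −0.66 (edgeR adjusted p = 0.00981). In each of the other 3 culture groups of the KCl experiment 1 of the 10 was called lower, beside 4.33%, 5.01% and 3.62% of all genes, with medians of −0.64, −0.67 and −0.76 against −0.02, −0.04 and −0.02 over all genes. With the CDS length trend removed, an alternative chosen after the data were seen, 1 of the 10 was lower in resting PSD95-TurboID neurons (median −0.09). With the trend left in, proton pump subunits of resting PSD95-TurboID neurons were split, 1 of 16 higher and 2 lower. The membrane subunit Atp6v0a1 was at 0.79 (edgeR adjusted p = 0.0072) and the small soluble subunit Atp6v1g1 at −1.43 (adjusted p = 0.00974). Active zone scaffolds had 3 of 12 higher and 1 lower, and recycling genes 4 of 16 higher and 2 lower. Among the recycling genes was the clathrin adaptor subunit Ap2m1 at 1.45 (edgeR adjusted p = 0.003). In this fit the lower members of these 3 lists made up shares near the 13.5% of all genes. With the length trend removed the calls changed, to 4 of 16 pump genes higher and none lower. Scaffolds then had 0 of 12 higher and 5 lower (median −0.75), and recycling genes 1 of 16 higher and 3 lower. Of all genes 7.10% were higher and 7.24% lower without the trend.

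With KCl, 6 of 16 proton pump genes were higher in inputs and none lower, where 6.33% of all genes were higher and 9.02% lower (median 0.37 against −0.01 over all genes), with Atp6v0c, the pore-forming subunit, at 0.79 (edgeR adjusted p = 4.31e-05). The KCl response of inputs fell with CDS length over all genes (Spearman −0.33), and with that trend removed 5 of 16 were higher (median 0.33), where 6.94% of genes were higher and 6.93% lower. Slc38a2, a glutamine transporter, was higher by 1.06 (edgeR adjusted p = 0.000942) and Rims1, an active zone scaffold, lower by −1.01 (adjusted p = 2.28e-05). In all 3 of 12 scaffolds were lower, and with the trend removed 2 were lower and 1 higher. Against inputs without knockdown, 5 of 10 SNAREs and partners were lower in knockdown inputs, where 7.87% of all genes were, among them Cplx1, a clamp of release, at −2.03 (edgeR adjusted p = 8.53e-05), as were 7 of 12 scaffolds, and Slc32a1, which loads GABA, was lower by −1.48 (adjusted p = 3.4e-05) beside the lower GABAergic markers given above.

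Across the 38 libraries, with each gene centred within its experiment, log2 CPM of the members fell into those that tracked each other and those that did not. Sv2a correlated with Slc17a6 (Pearson 0.93), Sv2b (0.89) and Syp (0.83) and inversely with Syn2 (−0.84), while Syn1 and Syt1 had coefficients of at most 0.38 in size with any other member. Inputs and pulldowns are mixed in these values and the libraries share their cultures, so they describe the separation of the fractions. Of 7270 genes with a mean of at least 20 CPM, the nearest was Plppr3 for Sv2a (0.97), Ranbp6 for Slc17a6 (0.96), Dpp6 for Sv2b (0.94), Ndufb11 for Syn2 (0.93), Grin1 for Syp (0.93) and Gabbr2 for Slc17a7 (0.88), but only Tmem151a at 0.73 for Syn1 and Ntrk2 at 0.71 for Syt1.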

How the data were processed

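Libraries of ribosome-protected fragments from inputs and streptavidin pulldowns were analysed. The authors removed ribosomal RNA reads and duplicates, aligned reads to mm10 with Rsubread and deposited counts per transcript segment, made with plastid from the 5′ end of reads of at least 25 bases. Strand and multimapping settings are not given in the sources used here. For each gene the CDS count of the longest transcript was used as deposited (66750 of 67238 coding transcripts matched a symbol).

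Groups came from the labels. edgeR 4.0.16 in R 4.3.3 (TMM, filterByExpr, robust quasi-likelihood test, Benjamini-Hochberg over all genes, threshold 0.05) was fitted per experiment, or over the groups compared between experiments, and limma 3.58.1 tested log2 ratios of 3′ to 5′ part counts (0.5 added, mean of at least 20 counts per part). DESeq2 1.42.0 was an alternative. The fits were tested on simulated data. The members, gene lists and tests were chosen with earlier results of these data known. All 8 members were tested in each comparison, and of each list the gene with the smallest p in each direction may be named.

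Pulldown and input of a number were taken to come from 1 monosome fraction. Their deviations from group means correlated at 0.26 to 0.61 in 12 of 12 pairs of the KCl experiment, −0.14 to 0.05 with DHPG and 0.02 in the knockdown. The study processed resting and activated samples of a replicate together, so the number was also fitted as a block, although resting and depolarized libraries of a number correlated above 0.1 in only 3 of 12 cases (−0.22 to 0.31). p-values measure the spread between these samples. The chi-square per gene between replicates, near 1 for counting error alone, was 8.61 to 47.5 in the KCl experiment, 1.48 to 8.88 with DHPG and 2.81 to 4.65 in the knockdown, so counting error was a larger part of the spread in the DHPG and knockdown experiments. Cycloheximide was given before lysis, which can shift footprints towards the 5′ end.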

Additional observations from a re-analysis of the deposited data

Results flagged for a closer look

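Each member's log2 differences were screened, after the other results were known, for culture groups in which every library moved one way while every library of another group moved the opposite way, over 216 pairings of groups and contrasts. This was found in 4, and in none of them was the difference between the groups tested. Groups of 2 or 3 libraries can part in this way easily, and the knockdown and DHPG neurons came from experiments of their own, so treatment and experiment cannot be told apart.

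Syn1 in pulldown over input had log2 ratios of 0.08, 0.27 and 0.51 with DHPG and of −0.36 and −0.39 in depolarized knockdown neurons, a difference of means of 0.67. Syp in depolarized inputs, set against the mean of the resting inputs, had 0.50, 0.19 and 0.00 in PSD95-TurboID neurons, the last barely above 0 (0.0029), and −0.10 and −0.12 in knockdown neurons, a difference of 0.34.

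Sv2b in depolarized pulldowns, set against the resting mean, had −0.22, −1.04 and −0.39 in PSD95-TurboID neurons and −0.33, −0.23 and −0.85 in Pan-TurboID neurons, but 0.33 and 0.37 in knockdown neurons. The resting knockdown pulldowns behind the last mean disagreed, at 134 and 79.4 CPM, and the depolarized ones, at 129 and 133 CPM, lay below the first of them, so this direction rests on 1 resting library with 186 counts. The differences of means, taken as the neurons without knockdown minus those with it, were −0.90 and −0.82 for PSD95-TurboID and Pan-TurboID. The total of Sv2b was called with KCl in none of these 3 sets of pulldowns by edgeR.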

How the results depend on the processing

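Member values were recomputed under 2560 combinations of value and alternative, of which 2273 kept direction and side of the threshold, 83 changed sign without being called, 126 lost a call, 78 gained one and none reversed a call. Of 320 counts of members called, 270 stayed within 1.5 times. Counts also changed when a replicate number was left out. The counts out of 8 for pulldown over input then ran from 0 to 5 (main 5) in resting and 0 to 4 (main 4) in depolarized PSD95-TurboID, 0 to 5 (5) in resting and 0 to 2 (4) in depolarized Pan-TurboID neurons, and, leaving out libraries, from 2 to 6 (6) in the resting knockdown. They ran from 0 to 1 (0) for KCl in inputs and in PSD95-TurboID pulldowns, 1 to 3 (3) in knockdown inputs, 3 to 5 (3) in knockdown pulldowns and 2 to 5 (5) for knockdown inputs against those without.

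With the compared groups alone, 0 members were called in depolarized PSD95-TurboID and Pan-TurboID pulldown over input, 5 for KCl in knockdown inputs and 1 (Syn1) for KCl in 5′ UTRs of inputs. Without the CDS length trend, 3 were called in resting Pan-TurboID neurons and 1 for KCl in inputs, as by DESeq2 (1). The KCl count in Pan-TurboID pulldowns was 1 (Slc17a7) under the likelihood ratio test, DESeq2, CDS totals and the compared groups alone, and that of 5′ UTRs in PSD95-TurboID pulldowns 1 by DESeq2. The replicate block gave 1 in both of these last comparisons, 5, 4, 5 and 4 for pulldown over input in the KCl experiment, and otherwise changed no count by over 1.5 times.

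For 3′ against 5′ parts, comparing only the outer ends of the CDS gave 7, 3, 4 and 7 in resting PSD95-TurboID, resting Pan-TurboID, depolarized Pan-TurboID and resting knockdown neurons, and the culture replicate block 8, 7 and 6 in the first 3 of these. The share of all genes called for the outer ends is not given. In every pair the 3′ end was above the 5′ end for 75.7%, 77.6%, 75.2% and 77.7% of genes in these 4 groups, so most genes shared the direction. Leave-outs ran from 0 to 4 (4), 0 to 5 (8, depolarized PSD95-TurboID), 0 to 0 (2, depolarized Pan-TurboID) and 1 to 4 (4, resting knockdown), and for KCl from 0 to 1 in inputs (1) and in PSD95-TurboID pulldowns (0). The causes were not tested. Depth limits the 5′ UTR counts, which for Slc17a6 were 4 to 27 a library in resting PSD95-TurboID pulldowns.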
